A study of Homo sapiens with 3 samples.

Results

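The 10 genes described here belong to the YAP and TEAD pathway: YAP1, WWTR1 (which encodes TAZ), TEAD1, TEAD4, CTGF, CYR61, ANKRD1, AMOTL2, LATS2 and AXIN1. They were chosen by name and matched by gene symbol, and CTGF and CYR61 are the older symbols of CCN2 and CCN1. All 10 were found among the 16149 genes with a value in at least 1 of the 3 libraries. All 10 also belonged to the 11370 genes with a mean of at least 1 RPKM, where RPKM is the reads of a gene divided by its length and scaled to the total reads of its library.

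Messenger RNA was sequenced once from each of 3 cultured lines of the human hepatocellular carcinoma (HCC) line HCCLM3, all grown in DMEM, with no drug or gene alteration named as a difference between them. The labels give the parent a low metastatic ability, subclone 1 a higher ability directed to the lung, and subclone 2 an ability directed to both the lung and the celiac lymph node. The methods of the study describe the parent as HCCLM3-R, a derivative that expresses red fluorescent protein and is highly metastatic, and the subclones as grown from single cells of metastases in nude mice. Each subclone is therefore 1 clone in 1 library, and a difference that comes with its organ preference and a difference between any pair of clones cannot be told apart.

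YAP and TAZ are transcriptional coactivators without a DNA-binding domain of their own, and they act mainly through the TEAD factors, which bind DNA. When the Hippo kinases MST and LATS phosphorylate YAP and TAZ, the proteins are retained in the cytoplasm or degraded, a control that restrains growth of the liver. In the nucleus they switch on genes such as CTGF, CYR61 and ANKRD1, and also LATS2 and AMOTL2, whose products act back on YAP. Because much of this control acts on the proteins, the mRNA levels given here describe the genes and not the activity of YAP or TAZ.

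The promoters of the target genes are shown first because TEAD factors recognise a short element that can be read in them. RefSeq promoters of GRCh38.p14 were matched for 7 of the 10 genes, and CYR61, TEAD1 and TEAD4 had no entry. In the sequences, written 5′ to 3′ on the strand of the gene, capitals mark the TEAD element GGAATG or its reverse complement CATTCC. The sequence of CTGF runs over the 250 bases before its start at chr6:131951373-131951622 on the minus strand. That of ANKRD1 runs from 250 to 190 bases before its start at chr10:90921277-90921337 on the minus strand. That of AMOTL2 runs from 79 to 54 bases before the second of its starts at chr3:134374501-134374526 on the minus strand.
CTGF: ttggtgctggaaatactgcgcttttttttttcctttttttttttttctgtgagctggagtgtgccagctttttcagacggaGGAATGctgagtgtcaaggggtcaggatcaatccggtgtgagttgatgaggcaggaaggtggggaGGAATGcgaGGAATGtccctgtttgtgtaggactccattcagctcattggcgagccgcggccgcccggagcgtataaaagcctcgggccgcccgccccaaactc
ANKRD1: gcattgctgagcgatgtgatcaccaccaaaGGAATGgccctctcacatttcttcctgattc
AMOTL2: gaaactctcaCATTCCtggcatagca

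The element was searched on both strands of the 250 bases before each start. The CTGF promoter held 3 copies, which began 169, 104 and 95 bases before the start. The ANKRD1 promoter held 2 copies, which began 220 and 128 bases before the RefSeq start. The GENCODE place of ANKRD1 given below begins further upstream, at base 90921276, so the copy at 128 lies inside the gene as placed there. The YAP1 promoter held 1 copy, which began 162 bases before its start. AMOTL2 held 1 copy before the second of its starts and none before the first. That copy also lies inside the gene as placed below. None was found in the 250-base windows of WWTR1, LATS2 or AXIN1, and both windows of WWTR1 lie inside the gene as placed below. Of 35116 promoters of the same length, 11.9% held at least 1 copy, 0.94% at least 2 and 0.0826% at least 3. For AP-1 the pattern TGANTCA was searched, where N is any base, which is looser than the usual AP-1 element. It was found once among the 7 genes, beginning 195 bases before the RefSeq start of ANKRD1, with T at the open base. This match did not overlap a TEAD element, and its last base lies past the printed piece. Of all promoters, 6.57% held the loose pattern. A match is a description of the letters and not evidence that a factor was bound.

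The depth behind each value was read from the RPKM, which put the parent at 4488825 reads, subclone 1 at 4609696 and subclone 2 at 4725150. Intervals of levels are exact Poisson intervals at 95%, and intervals of folds are exact Clopper-Pearson intervals at 95%. They cover counting error only, and reads from 1 molecule are not told apart. With 1 library per line no difference between lines could be tested, so that an interval compares 2 libraries and not 2 kinds of cell. In RNA of whole cultures, fewer cells that express a gene and less RNA per cell cannot be told apart. Folds are ratios of RPKM, and log2 ratios were taken after adding 0.1 RPKM to each value, which understates the change of low genes. Every count of genes past 2-fold uses these log2 ratios with the 0.1 RPKM added, so that a low gene can have a plain fold past 2 and not be counted. The keratin genes KRT8 and KRT18, epithelial markers on the hepatocyte list, lay between 1614 and 1742 RPKM and between 953 and 1075 RPKM. ALB (albumin), which defines the hepatocyte, had 2.46 RPKM in the parent, 49.5 RPKM in subclone 1 and 68.8 RPKM in subclone 2. The 10 hepatocyte markers summed to between 2580 and 2880 RPKM, nearly all of it KRT8 and KRT18. Of the 7 with a mean of at least 1 RPKM, 4 were at least 2-fold above the parent in subclone 1 and 3 in subclone 2, at median log2 ratios of 1.73 and 0.80, with ALB, APOB and FGB among them in both and TF in subclone 1. Of all genes, 4.90% and 5.33% were at least 2-fold above the parent. The hepatocyte markers under that mean, APOA1, SERPINA1 and TTR, had between 0 and 4 reads in each library. The 10 fibroblast markers summed to between 28.7 and 37.8 RPKM, with PDGFRA, PDGFRB and ACTA2 not listed. The 6 endothelial markers summed to between 5.11 and 12.0 RPKM and the 6 leukocyte markers to between 84.8 and 126 RPKM, mostly CD68, while CD3E was not listed and PTPRC had 1 read in the parent and was not listed in the subclones. The part of these markers in the levels below was not tested.

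In the first comparison, which asks how the lung-directed subclone differed from its parent, YAP1, WWTR1, TEAD4 and AXIN1 were lower and AMOTL2 was higher in subclone 1, each with an interval of the fold that excluded 1. The folds were 0.723 for YAP1, 0.858 for WWTR1, 0.589 for TEAD4, 0.807 for AXIN1 and 1.49 for AMOTL2. None of the 10 genes was 2-fold higher or 2-fold lower. Among all genes with a mean of at least 1 RPKM, 4.90% were higher and 1.82% lower by 2-fold or more, while 20.1% had an interval above 1 and 19.2% an interval below 1. Against this background 1 of the 10 genes had an interval above 1 and 4 of the 10 an interval below 1. Their median log2 ratio was -0.07, beside 0.00 for all genes, with 5 above 0 and 5 below 0.

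In the second comparison, of the subclone directed to lung and lymph node with the parent, ANKRD1 was lower in subclone 2 by a fold of 0.365, and it was the only 1 of the 10 genes past 2-fold, a limit that it no longer passed with a pseudocount of 1. YAP1 and TEAD4 were also lower, with folds of 0.804 and 0.622, and AMOTL2 was higher, with a fold of 1.40. Thus 1 of the 10 genes had an interval above 1 and 3 had an interval below 1. Among all genes, 5.33% were higher and 2.16% lower by 2-fold or more, and the intervals lay above 1 for 22.9% and below 1 for 18.2%. The median log2 ratio of the 10 genes was -0.01, beside 0.04 for all genes. Both comparisons use the same parent library, so that a count of reads that was high or low in the parent by chance enters both.

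In the comparison of the subclones with each other, YAP1 was higher in subclone 2 than in subclone 1 by a fold of 1.11 with an interval from 1.01 to 1.23, and the other 9 genes had intervals that contained 1. The interval of YAP1 also contained 1 after scaling to the upper quartile or centring on the median, and those of WWTR1 and AXIN1 lay above 1 after division by ACTB or GAPDH. None of the 10 was past 2-fold on the scale with 0.1 RPKM added, and none had an interval below 1. ANKRD1 lay at this limit: its plain fold was 0.488, its log2 ratio with 0.1 RPKM added was -0.97, and it passed 2-fold after centring, scaling to the upper quartile or with a pseudocount of 0.01. Among all genes, 1.42% were higher and 1.39% lower in subclone 2 by 2-fold or more, and 11.8% had an interval above 1 and 8.61% an interval below 1. The median log2 ratio was -0.01 for the 10 genes and 0.03 for all genes. The higher share among all genes past 2-fold was 50.5% here, and 64% or 62.6% after division by ACTB or GAPDH, and it was 72.9% for subclone 1 over the parent, or 57.8% after division by ACTB.

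**Figure D1:**
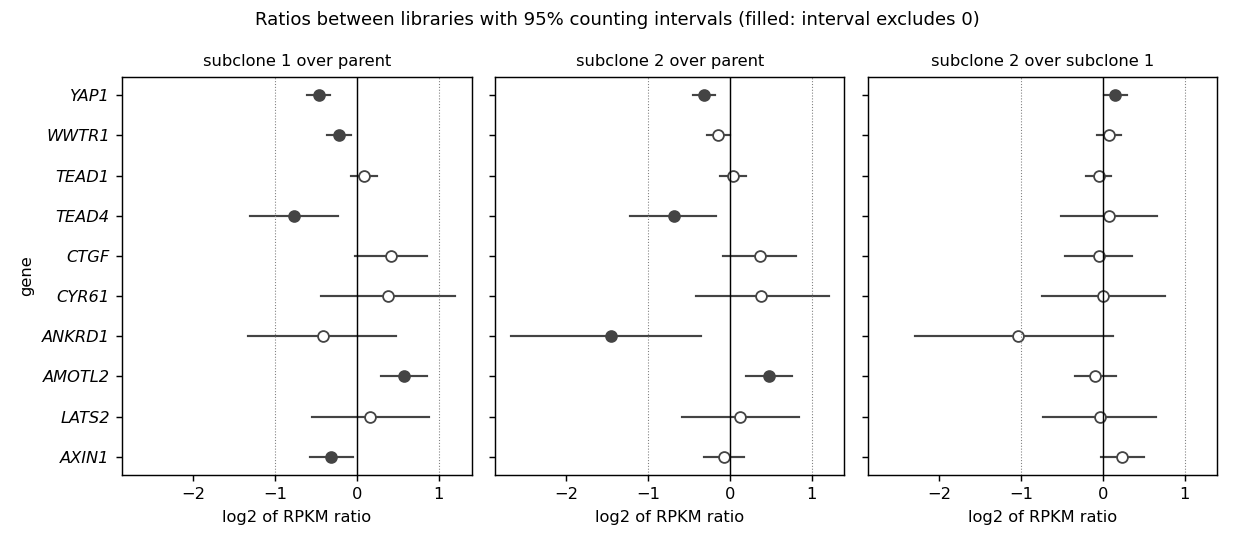
The log2 ratio of RPKM of each of the 10 genes (rows) is plotted for subclone 1 over the parent, subclone 2 over the parent and subclone 2 over subclone 1, without a pseudocount; lines are 95% counting intervals, dotted lines mark 2-fold, and filled points have an interval that excludes 0. Against the parent, YAP1 and TEAD4 lie to the left and AMOTL2 to the right in both panels, and only YAP1 is filled between the subclones.

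YAP1, the coactivator itself, lies on chromosome 11 at chr11:102110461-102233423 on the plus strand of GRCh38. It stood at 43.3 RPKM in the parent (1050 reads, interval 40.8 to 46.1), against 31.4 RPKM (780 reads, 29.2 to 33.6) in subclone 1 and 34.9 RPKM (889 reads, 32.6 to 37.2) in subclone 2. The parent was highest, and its interval overlapped neither of the others. The interval of the fold over the parent ran from 0.659 to 0.794 for subclone 1, and from 0.735 to 0.880 for subclone 2, with log2 ratios of -0.47 and -0.31. Part of an exon of YAP1, 432 bases at most, is shared with the antisense gene AP000942.2, whose reads cannot be told apart if the counting did not use strand.

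WWTR1 encodes TAZ, the paralog of YAP, and lies at chr3:149517235-149736714 on the minus strand. It stood at 36.1 RPKM in the parent (831 reads, interval 33.6 to 38.6), against 30.9 RPKM (732 reads, 28.7 to 33.2) in subclone 1 and 32.7 RPKM (793 reads, 30.4 to 35.0) in subclone 2. The parent was again highest. In subclone 1 the fold was 0.858 (0.776 to 0.949), whereas in subclone 2 it was 0.907 with an interval from 0.821 to 1.00 that just contained 1, and that lay below 1 after 4 of 5 other scalings of the libraries. WWTR1 shares up to 402 exon bases with its antisense gene WWTR1-AS1.

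Because RPKM is a level per length, the levels of both coactivator genes can be set side by side within a library. Here, and wherever genes are compared within a library, the intervals do not cover bias in counting that differs between genes. In the parent YAP1 exceeded WWTR1 and took 54.6% of their sum of 79.4 RPKM. In subclone 1 the sum was 62.3 RPKM and the intervals of both levels overlapped almost wholly. In subclone 2 the sum was 67.5 RPKM, YAP1 took 51.6% of it, and the intervals overlapped as well. In both subclones the fold over the parent was lower in value for YAP1 than for WWTR1, although the intervals of the folds overlapped.

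TEAD1 encodes a TEAD factor found in many tissues and lies at chr11:12674591-12944483 on the plus strand. It stood at 15.1 RPKM in the parent (640 reads, interval 14.0 to 16.3), against 16.1 RPKM (699 reads, 14.9 to 17.3) in subclone 1 and 15.5 RPKM (692 reads, 14.4 to 16.7) in subclone 2. The 3 intervals overlapped. The fold over the parent was 1.06 in subclone 1, with an interval from 0.954 to 1.19, and 1.03 in subclone 2, with an interval from 0.921 to 1.15. No difference in TEAD1 was detectable at this depth, and any difference between these libraries lay within those bounds as far as counting error goes.

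TEAD4 encodes another factor of the family and lies at chr12:2959330-3040673 on the plus strand. It stood at 10.04 RPKM in the parent (81 reads, interval 7.97 to 12.5), against 5.91 RPKM (49 reads, 4.37 to 7.82) in subclone 1 and 6.24 RPKM (53 reads, 4.67 to 8.16) in subclone 2. Both subclones lay below the parent and close to each other, with a fold between them of 1.06 (0.702 to 1.59). The interval of the fold over the parent ran from 0.404 to 0.850 for subclone 1, and from 0.431 to 0.890 for subclone 2. The log2 ratios of -0.75 and -0.68 stood at percentiles 4.13 and 5.35 of all genes.

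With the other TEAD genes included, the family kept nearly the same sum, which was 56.2 RPKM in the parent, 57.1 RPKM in subclone 1 and 56.2 RPKM in subclone 2. TEAD2, the highest of the 4, had 25.5 RPKM in the parent, 28.8 RPKM in subclone 1 and 28.6 RPKM in subclone 2, with folds over the parent of 1.13 (0.953 to 1.34) and 1.12 (0.946 to 1.33). TEAD3 had 5.53, 6.31 and 5.88 RPKM in the same order, with intervals of the fold that contained 1. TEAD4 thus took 17.9% of the sum in the parent but 10.3% and 11.1% in subclones 1 and 2. The VGLL proteins also bind TEAD, and VGLL4 competes there with YAP. VGLL1 and VGLL2 were not listed in any library. Among the 6 listed genes of both families, 1 had an interval above 1 and 2 an interval below 1 in either subclone over the parent, and none was past 2-fold. The genes with an interval below 1 were TEAD4 and VGLL4, and VGLL3 was the gene above 1 (VGLL3 and VGLL4 are named after their values were seen). The interval of VGLL3 in subclone 1 over the parent, 1.001 to 1.67, only just excluded 1. The median log2 ratio of the 6 genes was 0.13 in subclone 1 and 0.06 in subclone 2 over the parent. For all genes the medians were 0.00 and 0.04. Their intervals lay above 1 for 20.1% and 22.9%, and below 1 for 19.2% and 18.2%.

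**Figure D2:**
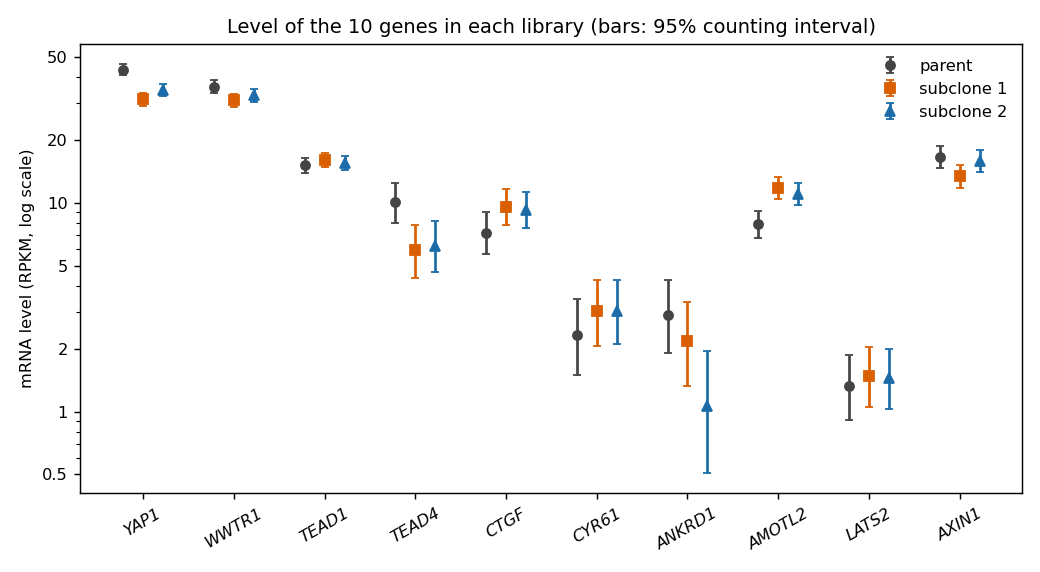
The mRNA level of each of the 10 genes in RPKM (log scale) is plotted for the parent (circles), subclone 1 (squares) and subclone 2 (triangles), 1 library each, with 95% counting intervals as bars. YAP1 and WWTR1 are highest in each library and LATS2 is lowest except in subclone 2, where ANKRD1 is lowest.

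CTGF and CYR61 encode secreted matrix proteins of the CCN family and are the usual readouts of YAP and TEAD. CTGF, at chr6:131948176-131951373 on the minus strand, stood at 7.18 RPKM in the parent (76 reads, interval 5.66 to 8.99), against 9.57 RPKM (104 reads, 7.82 to 11.6) in subclone 1 and 9.24 RPKM (103 reads, 7.55 to 11.2) in subclone 2. Both subclones were above the parent in value, but the intervals overlapped. The fold over the parent was 1.33 (0.982 to 1.82) in subclone 1 and 1.29 (0.948 to 1.76) in subclone 2. CTGF, whose promoter holds 3 TEAD elements, thus showed no difference detectable at this depth. An antisense gene, AL133346.1, shares up to 148 of its exon bases.

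CYR61, at chr1:85580761-85583962 on the plus strand, stood at 2.33 RPKM in the parent (24 reads, interval 1.49 to 3.47), against 3.02 RPKM (32 reads, 2.07 to 4.27) in subclone 1 and 3.04 RPKM (33 reads, 2.09 to 4.27) in subclone 2. These few reads gave folds over the parent of 1.30 (0.741 to 2.30) and 1.31 (0.749 to 2.31). The values of CYR61 and CTGF were higher in both subclones by nearly the same fold, but for neither gene did the interval exclude 1.

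ANKRD1 encodes a nuclear ankyrin-repeat protein first known from heart and lies at chr10:90912096-90921276 on the minus strand. It stood at 2.90 RPKM in the parent (26 reads, interval 1.90 to 4.26), against 2.18 RPKM (20 reads, 1.33 to 3.36) in subclone 1 and 1.06 RPKM (10 reads, 0.509 to 1.95) in subclone 2. Subclone 2 was lowest, although its interval overlapped slightly with that of the parent. The fold of subclone 2 over the parent was 0.365 with an interval from 0.157 to 0.783, and the log2 ratio of -1.37 stood at percentile 1.10 of all genes. The fold of subclone 1 over the parent was 0.749 (0.396 to 1.40) and that of subclone 2 over subclone 1 was 0.488 (0.204 to 1.09). ANKRD1 therefore lay on the other side of 1 from CTGF and CYR61 in value, with the difference from the parent resting on 26 and 10 reads.

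AMOTL2 encodes an angiomotin-like protein that binds YAP and holds it in the cytoplasm, and it is itself a target of YAP. At chr3:134355874-134375479 on the minus strand, it stood at 7.91 RPKM in the parent (177 reads, interval 6.79 to 9.17), against 11.8 RPKM (270 reads, 10.4 to 13.2) in subclone 1 and 11.04 RPKM (260 reads, 9.74 to 12.5) in subclone 2. The parent was lowest and its interval overlapped neither of the others. The fold over the parent was 1.49 (1.22 to 1.81) in subclone 1 and 1.40 (1.15 to 1.70) in subclone 2, and the subclones did not differ detectably from each other (0.939, 0.789 to 1.12). The processed pseudogene RPL39P5 lies on the same strand and shares up to 187 exon bases with AMOTL2, and how such reads were counted is not given in the sources used here.

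LATS2 encodes a kinase that phosphorylates YAP and lies at chr13:20973032-21061547 on the minus strand. It stood at 1.32 RPKM in the parent (33 reads, interval 0.910 to 1.86), against 1.48 RPKM (38 reads, 1.05 to 2.04) in subclone 1 and 1.45 RPKM (38 reads, 1.02 to 1.99) in subclone 2. The folds over the parent were 1.12 (0.685 to 1.84) and 1.09 (0.668 to 1.80), and with so few reads a difference inside these bounds could not be detected. Its paralog LATS1 had 4.17 RPKM in the parent, 3.88 RPKM in subclone 1 and 3.60 RPKM in subclone 2, and its folds also had intervals that contained 1.

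AXIN1 is the scaffold of the complex that marks β-catenin for destruction, and YAP and TAZ have been found associated with this complex. At chr16:287440-352673 on the minus strand, it stood at 16.6 RPKM in the parent (274 reads, interval 14.7 to 18.7), against 13.4 RPKM (227 reads, 11.7 to 15.3) in subclone 1 and 15.8 RPKM (275 reads, 14.0 to 17.8) in subclone 2. Subclone 1 was lowest, with a fold over the parent of 0.807 (0.674 to 0.965). In subclone 2 it was 0.953 (0.804 to 1.13), which contained 1. Between the subclones the fold was 1.18 with an interval from 0.988 to 1.42, so that a difference between them was not detectable at this depth.

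Within each library the 10 genes fell into the same broad order. YAP1 and WWTR1 stood at the top, followed by AXIN1 and TEAD1, whose intervals overlapped each other in every library. TEAD4, AMOTL2 and CTGF came next and overlapped in the parent, where TEAD4 had the highest value, whereas in both subclones TEAD4 had the lowest value of these 3 genes. CYR61, ANKRD1 and LATS2 were lowest, with ANKRD1 above CYR61 in the parent and below it in both subclones, although their intervals overlapped in the parent and subclone 1.

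**Figure D3:**
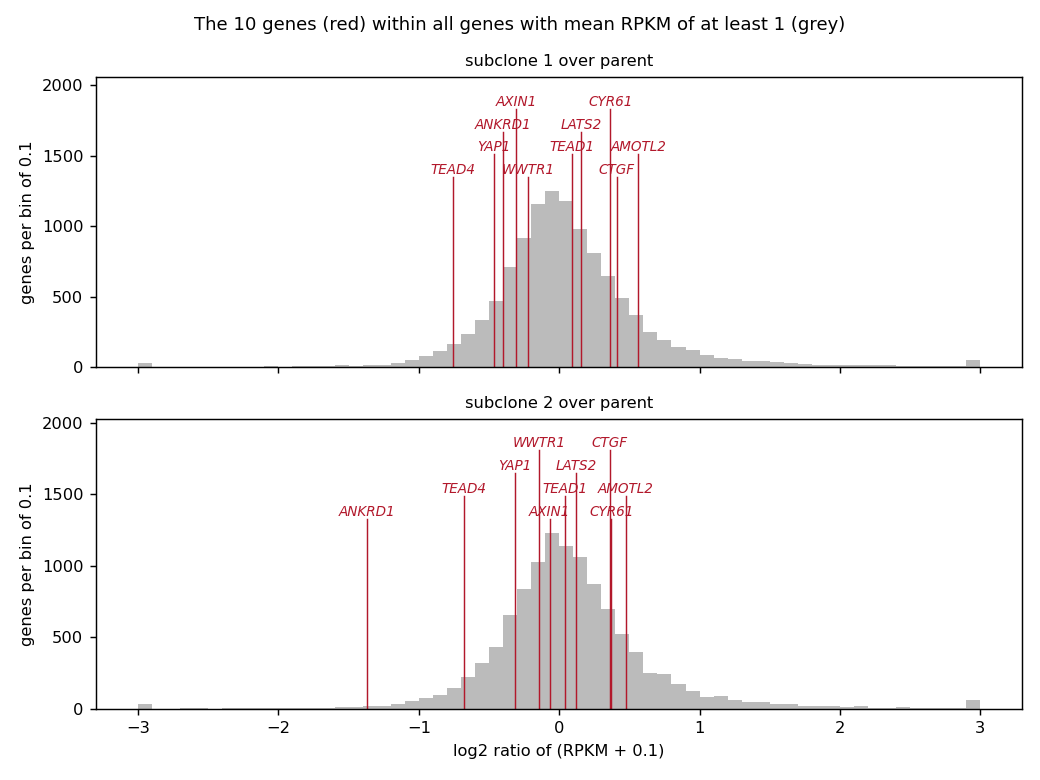
Grey bars count the 11370 genes with a mean of at least 1 RPKM by their log2 ratio of (RPKM + 0.1) in bins of 0.1, with ratios beyond 3 in either direction placed in the outermost bins, for subclone 1 over the parent (top) and subclone 2 over the parent (bottom); red lines mark the 10 genes. TEAD4 lies towards the lower tail in both panels, at -0.75 and -0.68, and ANKRD1 further out in subclone 2 over the parent, at -1.37.

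The wider target list held 22 genes that YAP and TAZ are known to activate, 5 of which are among the 10 genes described above, and 18 had a mean of at least 1 RPKM. In subclone 1 over the parent 5 of the 18 had an interval above 1 and 4 an interval below 1, and the median log2 ratio was 0.06. In subclone 2 over the parent 3 had an interval above 1 and 5 below 1, with a median of 0.07. In either comparison 1 target was at least 2-fold above and 1 at least 2-fold below the parent. Of all genes, 20.1% and 22.9% had an interval above 1 in subclones 1 and 2, and 19.2% and 18.2% below 1. By 2-fold or more, 4.90% and 5.33% of all genes were higher and 1.82% and 2.16% lower. The targets thus lay on both sides of the parent, at a median close to that of all genes. Between the subclones 2 had an interval above 1 and 5 below 1, beside 11.8% and 8.61% of all genes. The median of the targets was -0.04, and none of them was past 2-fold with 0.1 RPKM added. Without it FJX1 (2.09, 0.802 to 6.06) and ANKRD1 (0.488) had plain folds past 2 between the subclones, with intervals that contained 1.

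IGFBP3, a secreted protein that binds insulin-like growth factors, lay furthest above the parent among these 18 targets. It had 31.9 RPKM in the parent, 94.8 RPKM in subclone 1 and 73.6 RPKM in subclone 2, with folds over the parent of 2.97 (2.64 to 3.35) and 2.31 (2.04 to 2.61). Subclone 2 was below subclone 1, with a fold of 0.777 (0.711 to 0.848). FJX1, a secreted regulator related to the fly gene four-jointed, had 1.90 RPKM in the parent, 0.562 RPKM in subclone 1 and 1.18 RPKM in subclone 2. Its fold of 0.296 (0.107 to 0.713) in subclone 1 rests on 7 and 23 reads. The interval of its fold in subclone 2 over the parent, 0.301 to 1.24, contained 1. MYOF, a membrane repair protein and the target with the highest mean, had 83.6 RPKM in the parent, 74.1 RPKM in subclone 1 and 72.9 RPKM in subclone 2. Its deep coverage gave narrow intervals, from 0.838 to 0.938 and from 0.825 to 0.923, for folds of 0.886 and 0.872.

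**Figure D4:**
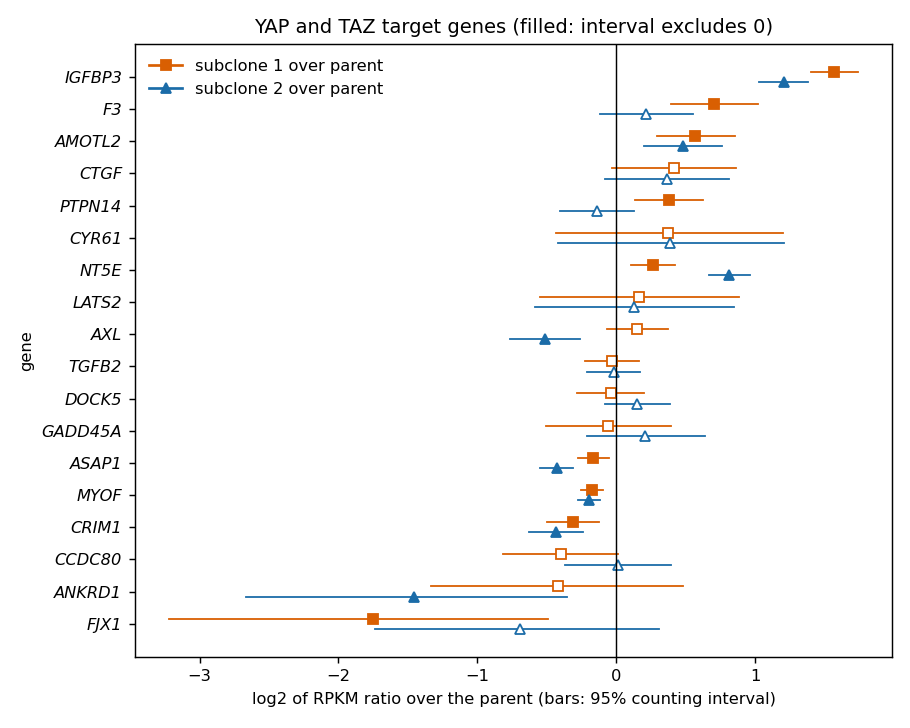
The log2 ratio of RPKM over the parent is plotted for the 18 target genes with a mean of at least 1 RPKM, in subclone 1 (squares) and subclone 2 (triangles), with 95% counting intervals as lines and filled points where the interval excludes 0. IGFBP3 lies furthest right in both subclones, FJX1 furthest left in subclone 1 and ANKRD1 furthest left in subclone 2.

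The 17 upstream kinases and regulators of YAP all had a mean of at least 1 RPKM. For comparison, 20.1% and 22.9% of all genes had an interval above 1 in subclones 1 and 2, and 19.2% and 18.2% below 1. In subclone 2, 5.33% of all genes were at least 2-fold higher. Of the 17, none was past 2-fold in subclone 1 over the parent, 4 had an interval above 1 and 2 below 1. Their median log2 ratio was -0.07. In subclone 2 over the parent 1 was 2-fold higher, 5 had an interval above 1 and 1 below 1, with a median of 0.04. That gene was SAV1, the adaptor that joins the MST kinases to LATS, which had 3.75 RPKM in the parent, 6.08 RPKM in subclone 1 and 7.89 RPKM in subclone 2. Its folds over the parent were 1.62 (1.13 to 2.34) and 2.10 (1.499 to 2.99), and both intervals contained a 2-fold increase. MOBKL1B, an older symbol of the LATS cofactor MOB1A and the highest of the list, had 61.2 RPKM in the parent, 58.3 RPKM in subclone 1 and 58.6 RPKM in subclone 2, with intervals of the fold that contained 1. Between the subclones 2 of the 17 had an interval above 1 and none below 1, and the median log2 ratio was 0.13. Of all genes, 11.8% lay above 1 there and 8.61% below 1.

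Of 8 proteins that bind YAP or TAZ and hold them back, AMOTL2 among them, 6 had a mean of at least 1 RPKM. Of these, 3 had an interval above 1 and 1 below 1 in subclone 1 over the parent, and 2 had an interval above 1 and none below 1 in subclone 2 over the parent, at medians of 0.07 and 0.00. Of all genes, 20.1% and 22.9% lay above 1 in subclones 1 and 2, and 19.2% and 18.2% below 1. YWHAZ, a 14-3-3 protein that binds phosphorylated YAP and the highest of the list, had 850 RPKM in the parent, 842 RPKM in subclone 1 and 863 RPKM in subclone 2. Its folds over the parent were 0.990 (0.965 to 1.02) and 1.01 (0.989 to 1.04). These narrow intervals cover counting error only, and not the scaling of the libraries. Between the subclones 2 of the 6 had an interval above 1 and 1 below 1, at a median of 0.02. Of all genes, 11.8% lay above 1 there and 8.61% below 1.

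AP-1 factors, dimers of FOS and JUN proteins, often bind beside TEAD at shared enhancers. Of 8 AP-1 genes 7 had a mean of at least 1 RPKM, and 4 had an interval above 1 and 1 below 1 in either subclone over the parent. Of all genes, 20.1% and 22.9% lay above 1 in subclones 1 and 2, and 19.2% and 18.2% below 1. The median log2 ratio of the AP-1 genes was 0.39 in subclone 1 and 0.64 in subclone 2 over the parent. For all genes it was 0.00 and 0.04. The AP-1 median in subclone 2 was 0.29 without the filter on RPKM. ATF3, a stress-induced partner of JUN, had 1.75 RPKM in the parent, 2.31 RPKM in subclone 1 and 5.58 RPKM in subclone 2. Subclone 2 was above both other libraries, with folds of 3.19 (2.02 to 5.21) over the parent and 2.41 (1.60 to 3.70) over subclone 1. FOSL1, the AP-1 gene with the highest mean, lay on the other side of the parent from the median, with 64.1 RPKM in the parent, 39.8 RPKM in subclone 1 and 40.7 RPKM in subclone 2. Its folds over the parent were 0.621 (0.518 to 0.742) and 0.635 (0.532 to 0.758). Between the subclones 2 of the 7 had an interval above 1 and 2 below 1, at a median of 0.03. Of all genes, 11.8% lay above 1 there and 8.61% below 1.

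The list named for the β-catenin destruction complex, to which AXIN1 belongs, held 10 genes that all had a mean of at least 1 RPKM. Beside parts of the complex it held its target CTNNB1 and the tankyrase genes TNKS and TNKS2. In either subclone over the parent 5 of the 10 had an interval below 1 and 1 had an interval above 1. The gene above 1 was TNKS, named after its values were seen, with folds of 1.27 (1.06 to 1.51) and 1.22 (1.02 to 1.45). Of all genes, 19.2% and 18.2% had an interval below 1 in subclones 1 and 2, and 20.1% and 22.9% above 1. The median log2 ratio of the 10 was -0.29 in subclone 1 and -0.15 in subclone 2 over the parent, beside 0.00 and 0.04 for all genes. AXIN2, the inducible paralog of AXIN1 and a target of β-catenin, had 29.05 RPKM in the parent, 14.4 RPKM in subclone 1 and 13.5 RPKM in subclone 2. Its folds of 0.497 (0.429 to 0.574) and 0.464 (0.400 to 0.537) passed 2-fold in both subclones, but both intervals contained a 2-fold decrease. In subclone 1 AXIN2 lay at this limit. The folds of AXIN1 did not pass 2-fold in either subclone. For comparison, 1.82% and 2.16% of all genes were at least 2-fold lower in subclones 1 and 2. CTNNB1, which encodes β-catenin and had the highest mean of the list, had 109 RPKM in the parent, 72.1 RPKM in subclone 1 and 84.8 RPKM in subclone 2, with folds over the parent of 0.658 (0.612 to 0.708) and 0.774 (0.723 to 0.830). Between the subclones 2 of the 10 had an interval above 1, none was below 1, and the median was 0.08. Of all genes, 11.8% lay above 1 there and 8.61% below 1.

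Each of the 10 genes was set beside its neighbours along the chromosome, in the order of the RefSeq gene table. For YAP1 the nearest 5 expressed genes on each side had median log2 ratios of 0.21 in subclone 1 and 0.12 in subclone 2 over the parent, where YAP1 had -0.47 and -0.31. Of these 10 neighbours 2 were below YAP1 in subclone 1 and 0 in subclone 2. For TEAD4 the medians of the neighbours were -0.08 and -0.18, and 0 of 10 lay below TEAD4 in either subclone. For ANKRD1 the medians were 0.11 and 0.04, and 1 and 0 of 10 neighbours lay below it. For AMOTL2 the medians were -0.12 and -0.11, and 9 and 10 of 10 neighbours lay below it. These 4 genes were picked after their values were seen, and for the other 6 between 1 and 9 of 10 neighbours lay below the gene in the comparisons with the parent.

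The genes whose pair of log2 ratios over the parent was most like that of CTGF were TMEM67, SUFU and PFKFB2, over 3 libraries. TMEM67 had 4.04, 5.40 and 5.22 RPKM in the parent, subclone 1 and subclone 2, SUFU had 2.59, 3.48 and 3.35 RPKM, and PFKFB2 had 3.97, 5.31 and 5.15 RPKM. Their distance from CTGF on the log2 scale was 0.00205, 0.00267 and 0.00676. Of the 11369 genes compared, 290 lay within 0.1 of CTGF, so that a likeness over so few libraries was common.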

How the data were processed

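Trizol was used to extract RNA, and TruSeq reagents to make libraries. The authors deposited RPKM values per gene for 3 libraries, 1 per line, with genome build hg19 named in the submitters' processing notes. The aligner, the counter, the annotation and the use of strand are not given in the sources used here. Genes missing from a library were set to 0.

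The 10 genes and the gene lists were chosen with earlier results of these data known. Beyond the 10 genes, the text names list genes with a mean of at least 1 RPKM that were past 2-fold in any comparison (up to 4 per list), the highest gene of each list, and the 3 genes nearest to CTGF; others are marked where they appear, and LATS1 and TEAD3 were added as paralogs after their values were seen.

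Log2 ratios used a pseudocount of 0.1 RPKM. An RPKM is whole reads divided by length and library total: totals were found from genes whose reads matched between the parent and subclone 1 (653) or subclone 2 (625) and from a common step. The smallest length giving whole reads was taken, multiplied by 2 or 3 only where it was under 0.6 of the shortest transcript and the multiple came within 10% of one. This rule was revised after values were seen. Whole reads were found for 11367 of 11370 genes, and 79.8% of the lengths lay within 10% of a transcript. Reads sharing a divisor can be understated, which widens intervals. The scripts were tested on simulated data. Places are from GENCODE 29 (GRCh38) and promoters from RefSeq (GRCh38.p14), not from hg19. Python 3.11.15, numpy 2.4.6, pandas 2.3.3, scipy 1.17.1 and matplotlib 3.10.9 were used.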

Additional observations from a re-analysis of the deposited data

Results flagged for a closer look

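3 genes of the lists with a mean of at least 1 RPKM met these conditions together. Their values lay on opposite sides of the parent in the subclones. The interval of the fold excluded 1 between the subclones and for at least 1 subclone over the parent. Other list genes lay on opposite sides of the parent without meeting all of these conditions. COL1A1, a fibroblast marker, met them but had a mean under 1 RPKM, with 9, 11 and 1 reads in the parent, subclone 1 and subclone 2. With 1 library per line, the difference between the subclones was not tested. AXL, a receptor tyrosine kinase and YAP target, had 14.9 RPKM in the parent, 16.6 RPKM in subclone 1 and 10.4 RPKM in subclone 2, and its log2 ratio of subclone 2 over subclone 1 was -0.66, with a fold of 0.631 (0.533 to 0.745). PTPN14, a phosphatase that binds YAP and is also on the target list, had 4.01, 5.21 and 3.65 RPKM in the same order, a log2 ratio of -0.50 between the subclones and a fold of 0.701 (0.589 to 0.832). FOSL2, an AP-1 subunit, had 19.5, 23.3 and 18.7 RPKM, a log2 ratio of -0.32 and a fold of 0.802 (0.695 to 0.925). The interval of the fold over the parent contained 1 for AXL in subclone 1, and for PTPN14 and FOSL2 in subclone 2.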

How the results depend on the processing

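The log2 ratios of the 10 genes were recomputed under 7 alternatives (pseudocounts of 0.01 and 1, the same sum of RPKM, centring on the median, the upper quartile, ACTB and GAPDH). All 210 values stayed within their counting interval, and 11 changed sign, all of them in ratios whose interval contained 1. Division by ACTB put the median log2 ratio of all genes at -0.13 in subclone 1 over the parent and at 0.16 between the subclones, and division by GAPDH put it at 0.15 between the subclones. When the intervals were rescaled, a step added after the values were seen, 10 of 150 calls changed. WWTR1 in subclone 2 over the parent was below 1 under 4 scalings, with a fold of 0.896 (0.812 to 0.989) at the same sum. WWTR1 and AXIN1 in subclone 2 over subclone 1 were above 1 with ACTB (1.15 and 1.29) and GAPDH (1.15 and 1.28), and YAP1 there contained 1 with the upper quartile (1.07) and centring (1.09).

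Of the 10 genes, 1 was 1.5-fold below the parent in subclone 1 and 2 in subclone 2, where 0 were 2-fold below it at a pseudocount of 1. Between the subclones 1 was lower at 1.5-fold, and 1 was 2-fold lower with centring, the upper quartile or a pseudocount of 0.01. Over all genes, the numbers higher in subclone 1 over the parent, subclone 2 over the parent and subclone 2 over subclone 1 were 1317, 1444 and 540 at 1.5-fold, 1523, 1553 and 842 with no filter, 233, 253 and 43 at a mean of at least 5 RPKM, and 347, 380 and 80 at a pseudocount of 1. The numbers lower were 848, 830 and 467, then 884, 941 and 902, then 71, 93 and 46, and 117, 150 and 77 in the same order, and 328 were lower in subclone 1 than in the parent after division by ACTB. Each of these settings but ACTB admits more or fewer genes, or shrinks low values, by its construction. Division by ACTB moves the ratios of a comparison together. It put the median log2 ratio of all genes at -0.13 in subclone 1 over the parent. Why ACTB differed between the libraries was not tested. Of 189 medians of 7 lists, 187 moved by less than 0.2, and the median of AP-1 genes in subclone 2 over the parent was 0.29 both with no filter and at a mean of at least 5 RPKM.

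No paired analysis was possible because each line had 1 library. Genes with few reads, ANKRD1, CYR61 and LATS2 among the 10, allow only wide intervals at these depths.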

Other observations

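Several list genes outside the rule for naming genes were chosen after their values were seen. AMOTL1, the paralog of AMOTL2 and likewise a protein that binds YAP, was seen in 1 read of the parent, 19 reads of subclone 1 and 14 reads of subclone 2, which is 0.0248, 0.458 and 0.329 RPKM. The folds over the parent were 18.5 with an interval from 2.94 to 769 and 13.3 with an interval from 2.02 to 562, and AMOTL1 stayed under the mean of 1 RPKM. AMOT, the remaining gene of that family, had 0.0321 RPKM in the parent and was not listed in either subclone. NT5E, a surface ectonucleotidase on the target list, had 32.4 RPKM in the parent, 39.1 RPKM in subclone 1 and 57.1 RPKM in subclone 2, and the fold of subclone 2 over subclone 1 was 1.46 (1.33 to 1.61). F3, which encodes tissue factor, had 12.9, 21.1 and 15.0 RPKM, with a fold of 1.63 (1.32 to 2.03) in subclone 1 over the parent and of 0.712 (0.581 to 0.871) between the subclones. MAP4K4, a kinase upstream of LATS, had 44.3, 28.7 and 30.2 RPKM, with folds over the parent of 0.648 (0.597 to 0.703) and 0.682 (0.630 to 0.738).

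Among the AP-1 genes, JUNB had 31.0, 57.1 and 48.3 RPKM, JUND 26.2, 36.3 and 45.8 RPKM and FOS 7.74, 12.9 and 13.1 RPKM, with the parent first and subclone 2 last. JUN had 31.4, 31.2 and 28.3 RPKM, with intervals of the fold over the parent that contained 1. Beside them FOSL1, at 64.1, 39.8 and 40.7 RPKM, was the only AP-1 gene with an interval below 1 over the parent.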
